A study of Mus musculus with 2 samples.

Results

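The genes described here encode the protein kinase mTOR, the scaffold subunits that define its complexes, the proteins that switch it and its best known targets in translation. They were listed by symbol and not by a cut on measured values, but with earlier results of these data known. The genes are Mtor, Rptor, Rictor, Tsc1, Tsc2, Rheb, Eif4ebp1 and Rps6kb1. All 8 were found, among 10543 genes with a single symbol in the deposited table, and each was a single locus.

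mTOR is a kinase that couples growth to the supply of amino acids, energy and growth factors. With Raptor (Rptor) it forms mTORC1, which promotes protein synthesis by phosphorylating 4E-BP1 (Eif4ebp1) and S6 kinase 1 (Rps6kb1). With Rictor it forms mTORC2, which phosphorylates Akt. The small GTPase Rheb activates mTORC1 when loaded with GTP, and the Tsc1 and Tsc2 proteins form a complex that turns Rheb off. In muscle this pathway is known for its part in fibre growth after loading and feeding. Most of its regulation is by phosphorylation and by movement to the lysosome, which transcript levels do not measure.

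Poly(A) RNA came from thigh skeletal muscle of mice of the hybrid strain B6C3F1 aged 26 months. The calorie restriction (CR) mice ate about 40% less energy than the controls over 25 months, on feed enriched to keep protein, vitamins and minerals per body weight close to the control intake. The control mice received the control feed. There was 1 library per group, so no difference has a replicate check, no error can be given and no test was made. The sources used here do not say how many mice entered a library. Levels are FPKM, a measure of sequenced fragments that is adjusted for transcript length and for library size, so that genes can be compared by level. Differences are given as log2 of (FPKM + 1) in CR divided by (FPKM + 1) in control, called the log2 ratio, and a fold is that ratio without the logarithm, which understates differences of low genes.

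The labelled tissue was checked on its markers. All 8 measured skeletal muscle markers lay within 2-fold between the libraries, and their FPKM summed to 1100300 in CR and 883057 in control. Acta1, skeletal actin, stood at 354522 FPKM in CR and 372424 in control. The libraries differed in other markers. All 8 slow fibre markers were at least 2-fold higher in CR, with sums of 132105 FPKM in CR and 15418 in control, and none was listed at 0. White adipocyte markers were at least 2-fold higher for 7 of 8, with sums of 19032 FPKM in CR and 4149 in control. Of 5 tendon markers 3 were at least 2-fold lower, with sums of 999 FPKM in CR and 1691 in control. Of 4 endothelial markers 1 was at least 2-fold higher (Tek, 338 FPKM in CR and 157 in control), with sums of 1497 FPKM in CR and 1038 in control. All 3 measured macrophage markers lay within 2-fold, with sums of 295 FPKM in CR and 304 in control. Of 2 measured keratinocyte markers Krt10 was higher, at 43.1 FPKM in CR and 16.5 in control, and Perp was listed at 0 in CR and at 34.6 FPKM in control. Beside these counts, 8.01% of the 10533 genes averaging 1 FPKM or more were at least 2-fold higher and 10.7% at least 2-fold lower. In lists this short, 1 gene past 2-fold says little. In a bulk sample, more cells of a type and more RNA per cell cannot be told apart. The part of these marker differences in the values that follow was not tested.

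Tsc1 was the one member past 2-fold between the diets. Its transcript, which encodes hamartin, the stabilising partner of Tsc2, stood at 1015 FPKM in the CR library and 464 FPKM in the control library. This is a log2 ratio of 1.13, a fold of 2.18. The other 7 members lay within 2-fold. Rptor, Eif4ebp1 and Rheb had the lowest ratios of these, and Mtor, Tsc2, Rps6kb1 and Rictor lay closest to equal levels.

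At least 2-fold higher in CR was 1 of 8 members (12.5%), beside 8.01% of the 10533 genes averaging 1 FPKM or more. No member (0 of 8) was at least 2-fold lower, beside 10.7% of all genes. With this number of members, shares this near the background are not a result about the group. All 8 passed the filter at a mean of 1 FPKM, and none was listed at 0 in a library. The median log2 ratio of the members was 0.06, against -0.03 over all genes, and 4 members lay above 0 and 4 below it. The median of the ratios without their sign was 0.33 on the log2 scale for members and 0.39 for all genes. Genes with low values make up much of the background. Among the 4784 genes whose mean lay within the range spanned by the members, a set added after the values were seen, 4.16% were at least 2-fold higher and 4.33% at least 2-fold lower.

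**Figure D1:**
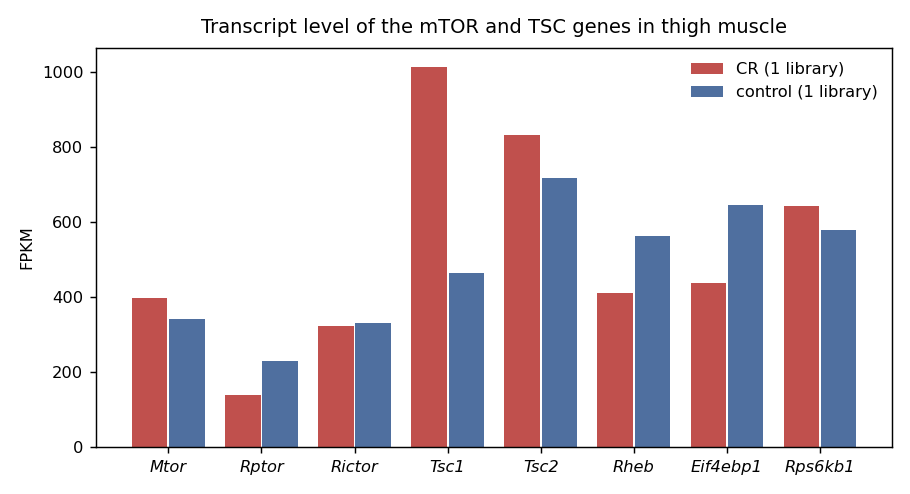
Bars give the FPKM of each gene in the CR library (left bar, red) and the control library (right bar, blue), with 1 library per group and so no error bars. Tsc1 is the gene with the widest gap, at 1015 FPKM in CR and 464 FPKM in control, and Rptor is the lowest gene in both libraries.

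The kinase itself was near equal in the libraries. Mtor (mm9, chromosome 4, 147822679 to 147931794, plus strand) stood at 397 FPKM in CR and 343 FPKM in control, a log2 ratio of 0.21. That places it above 70.6% of genes by level in CR and above 65.7% in control. By ratio it exceeded 66.6% of genes, in the middle part of the distribution.

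Both scaffolds of the complexes lay within 2-fold. Rptor (chromosome 11, 119464309 to 119760908, plus strand), whose protein recruits substrates to mTORC1, stood at 137 FPKM in CR and 230 FPKM in control. Its log2 ratio of -0.74, 1.67-fold lower in CR, was the lowest of the members, and 15.0% of all genes had a lower one. Rictor (chromosome 15, 6658381 to 6750400, plus strand), the scaffold of mTORC2, stood at 323 FPKM in CR and 330.5 FPKM in control, a log2 ratio of -0.03. The level of Rptor was thus below that of Rictor in both libraries, at a ratio of 0.426 in CR and 0.696 in control. Relative to Mtor, Rptor stood at 0.346 in CR and 0.672 in control, and Rictor at 0.813 in CR and 0.964 in control. Such ratios of genes within a library do not depend on how the libraries are scaled to each other.

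Of the TSC complex genes, Tsc1 lay past 2-fold and Tsc2 within it. Tsc1 (chromosome 2, 28496756 to 28546687, plus strand) had the ratio given above, and 705 of the 10533 genes had a higher one. Tsc2 (chromosome 17, 24727368 to 24769574, minus strand), which encodes tuberin, the subunit that acts on Rheb as a GTPase-activating protein, stood at 834 FPKM in CR and 718 FPKM in control. Its log2 ratio was 0.21. The level of Tsc1 over that of Tsc2 was 1.22 in CR and 0.646 in control, so that Tsc1 was the more abundant of the pair in CR and Tsc2 in control. By level Tsc1 ranked 1 of the 8 members in CR and 5 of 8 in control. No other gene in the table lay within 10 kb of the Tsc1 locus, so overlap with a listed neighbour does not touch its value.

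Rheb, the switch that the TSC complex turns off, lay within 2-fold. The gene (chromosome 5, 24308641 to 24348643, minus strand) had 411 FPKM in CR and 562 FPKM in control, a log2 ratio of -0.45, or 1.37-fold lower in CR. Rheb over Tsc1 was 0.405 in CR and 1.21 in control, and Rheb over Tsc2 was 0.493 in CR and 0.783 in control. In CR the level of Rheb was below that of each TSC gene, while in control it lay between them.

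Both targets in translation lay within 2-fold. Eif4ebp1 (chromosome 8, 28370641 to 28386128, plus strand) encodes 4E-BP1, a repressor that holds the cap-binding protein eIF4E until mTORC1 phosphorylates it. It stood at 439 FPKM in CR and 645 FPKM in control, a log2 ratio of -0.56, 1.47-fold lower in CR. Rps6kb1 (chromosome 11, 86312513 to 86358309, minus strand), the gene of S6 kinase 1, which phosphorylates ribosomal protein S6, stood at 643 FPKM in CR and 579.7 FPKM in control, a log2 ratio of 0.15. Eif4ebp1 over Rps6kb1 was 0.682 in CR and 1.11 in control.

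Close relatives of the members gave a fuller view of these steps. Eif4ebp2, the other measured 4E-BP gene, stood at 1165 FPKM in CR and 1240.1 FPKM in control and so was the more abundant of the pair in both libraries. Eif4ebp1 over Eif4ebp2 was 0.376 in CR and 0.520 in control. Eif4e, the cap-binding protein itself, stood at 573 FPKM in CR and 328 FPKM in control, within 2-fold at a log2 ratio of 0.80. The level of Eif4ebp1 over that of Eif4e was therefore 0.765 in CR and 1.96 in control, which is below 1 in CR and above 1 in control. This holds for Eif4ebp1 alone. Eif4ebp2 by itself stood above Eif4e in both libraries, so the 4E-BP genes together exceeded Eif4e in CR and in control. These pairs were chosen after their values were seen. Rps6kb2, the gene of S6 kinase 2, stood at 125 FPKM in CR and 227 FPKM in control, and Rps6kb1 exceeded it 5.14-fold in CR and 2.56-fold in control. Rhebl1, a Rheb relative of low level, stood at 86.0 FPKM in CR and 31.0 FPKM in control.

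**Figure D2:**
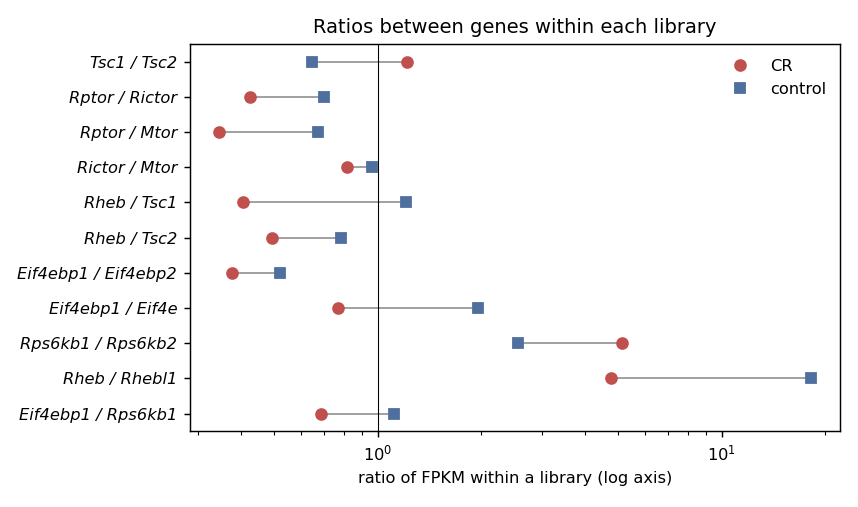
Each row gives the FPKM of the first gene over that of the second within a library on a log axis, as a red circle for CR and a blue square for control, with 1 library each. Tsc1 over Tsc2 (1.22 in CR and 0.646 in control) and Eif4ebp1 over Eif4e (0.765 in CR and 1.96 in control) lie on opposite sides of 1 in the libraries. So do Rheb over Tsc1 (0.405 in CR and 1.21 in control) and Eif4ebp1 over Rps6kb1 (0.682 in CR and 1.11 in control). The ratio to Eif4e leaves out Eif4ebp2, which stood above Eif4e in both libraries. The pairs were chosen after their values were seen. Rheb over Rhebl1 has the widest gap, at 4.78 in CR and 18.2 in control.

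By level the members spanned a wider range in CR than in control. In CR they ran from 137 FPKM (Rptor) to 1015 FPKM (Tsc1), a 7.39-fold range, with the order from low to high Rptor, Rictor, Mtor, Rheb, Eif4ebp1, Rps6kb1, Tsc2 and Tsc1. In control they ran from 230 FPKM (Rptor) to 718 FPKM (Tsc2), a 3.12-fold range, with the order Rptor, Rictor, Mtor, Tsc1, Rheb, Rps6kb1, Eif4ebp1 and Tsc2. The 3 lowest places were held by the same genes in both. With no spread over samples, it cannot be said which neighbours in these orders differ. Summed over the members, levels were 4198 FPKM in CR and 3873 FPKM in control, and without Tsc1 they were 3183 FPKM in CR and 3409 FPKM in control. The members' median level was 425 FPKM in CR and 513 FPKM in control, against 224 FPKM in CR and 223 FPKM in control over all genes.

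**Figure D3:**
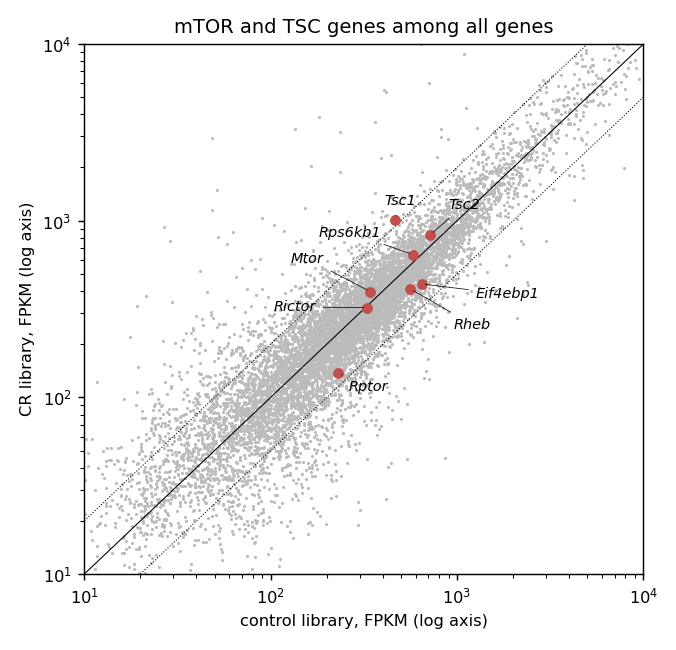
Each grey point is a gene above 0 in both libraries, with its FPKM in CR on the vertical and in control on the horizontal log axis. Genes beyond the ends of the axes are not drawn. The solid line marks equal levels and the dotted lines 2-fold. Of the 8 red members Tsc1 lies just beyond the upper 2-fold line and the other 7 between the lines.

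The wider pathway was described with lists of 85 further genes, of which 80 were measured. At least 2-fold higher were 3 of the 80 (3.75%), beside 8.01% of all genes, and at least 2-fold lower were 5 of 80 (6.25%), beside 10.7%. Within the range of the member means the shares of all genes were 4.16% higher and 4.33% lower. The other 72 of the 80 lay within 2-fold. The median log2 ratio over the 80 genes was -0.16.

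Of 7 measured partner proteins of the mTOR complexes 6 lay within 2-fold, 0 were higher and 1 was lower (14.3%, beside 10.7% of all genes). Log2 ratios lay below 0 for 5 of the 7, beside 52.1% of all genes. The median log2 ratio was -0.44, or -0.27 without the gene listed at 0 in CR. The most abundant was Akt1s1, the mTORC1 inhibitor PRAS40, at 431 FPKM in CR and 585 FPKM in control. Prr5, an mTORC2 subunit, was listed at 0 in CR and at 37.5 FPKM in control, so it has no fold, since a 0 in this table can be a failed estimate. It was the partner counted as lower. Of the TSC and Rheb relatives, Tbc1d7, the further subunit of the TSC complex, stood at 389 FPKM in CR and 332 FPKM in control. Rhebl1 was 2.72-fold higher in CR.

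Genes that carry growth factor signals to mTOR all lay within 2-fold, 13 of 13, beside 81.3% of all genes, with a median log2 ratio of 0.05. The 81.3% includes low genes, and within the range of the member means only 4.16% of genes were higher and 4.33% lower. The most abundant was Akt2, the Akt kinase of insulin action, at 1606 FPKM in CR and 2769 FPKM in control.

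Among the 30 genes of amino acid input 26 lay within 2-fold, 1 was higher and 3 were lower, with a median log2 ratio of -0.16. These shares, 3.33% higher and 10.0% lower, stand beside 8.01% and 10.7% of all genes. Without genes listed at 0 in a library 2 were lower, and none of the 4 had a mean within the range of the member means. The higher gene was Gatsl3, now named Castor1, whose product is an arginine sensor, at 98.2 FPKM in CR and 24.9 FPKM in control. Lower genes were Sesn2, a leucine sensor that is also induced by stress, at 18.6 FPKM in CR and 79.5 FPKM in control, and Slc7a5, the leucine transporter LAT1, at 25.7 FPKM in CR and 104 FPKM in control. Rragb, a Rag GTPase that brings mTORC1 to the lysosome, was listed at 0 in CR and at 28.7 FPKM in control. The most abundant was Lamtor5, a subunit of the Ragulator anchor of the Rag GTPases, which the table lists as Hbxip, at 1749 FPKM in CR and 1032 FPKM in control. All 4 genes past 2-fold had lower levels than any member had in its own library.

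Energy and stress brakes on mTORC1 had 7 of 8 measured genes within 2-fold and 1 higher (12.5%, beside 8.01% of all genes). Ddit4l, a relative of the mTORC1 inhibitor Ddit4, stood at 1669 FPKM in CR and 825 FPKM in control, 2.02-fold higher. The count of 1 became 0 when the libraries were rescaled without their 50 most abundant genes. Prkaa2, the AMPK catalytic subunit most abundant in muscle, stood at 3164 FPKM in CR and 2911 FPKM in control.

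On the output side, all 11 measured genes of cap-dependent translation and S6 kinase signalling lay within 2-fold, beside 81.3% of all genes. That share includes low genes. Within the range of the member means, only 4.16% of genes were higher and 4.33% lower. Of the 11, 9 had a log2 ratio below 0, beside 52.1% of all genes, and their median was -0.37. The most abundant was Eef2, the elongation factor that moves the ribosome along the mRNA, at 7555 FPKM in CR and 11201 FPKM in control. Of 9 other targets 8 lay within 2-fold and 1 was lower (11.1%, beside 10.7% of all genes). This was Ulk1, the autophagy kinase that mTORC1 inhibits, at 336 FPKM in CR and 1094 FPKM in control, 3.25-fold lower. Sgk1, a kinase downstream of mTORC2, was the most abundant of these, at 1574 FPKM in CR and 1394 FPKM in control.

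**Figure D4:**
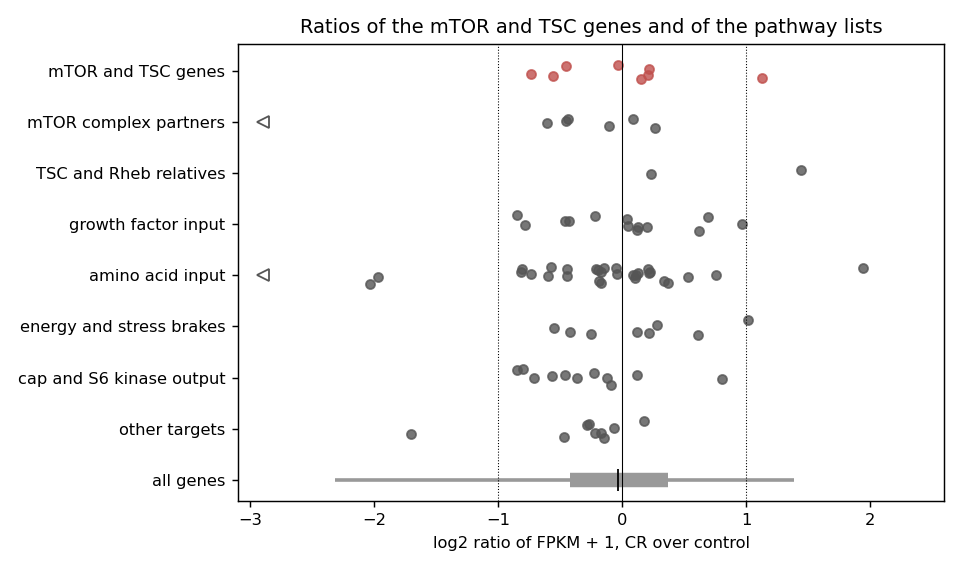
Points give the log2 ratio of FPKM + 1, CR over control, of the 8 members (red) and of the genes of each list (grey), with vertical scatter added for legibility. Open triangles at the left edge mark Prr5 and Rragb, which were listed at 0 in CR and have no fold, dotted lines mark 2-fold, and the bottom bar gives all genes (5 to 95% thin, 25 to 75% thick, median as a tick at -0.03). Tsc1 lies beyond the right dotted line and the other members between the lines.

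Loci that overlap or adjoin the members bear on how far each value can be assigned, since the library kit, as the protocol describes it, keeps no record of strand. Mtor encloses Angptl7, a secreted angiopoietin-like protein on the opposite strand, at 152 FPKM in CR and 475 FPKM in control, a log2 ratio of -1.64 beside 0.21 for Mtor. Exosc10, an RNA exosome subunit that begins 741 bases after Mtor on the same strand, stood at 944 FPKM in CR and 316 FPKM in control, 2.98-fold higher in CR. The Tsc2 locus overlaps the 3′ end of Pkd1, the gene of polycystin 1 on the opposite strand, by 7176 bases, and Pkd1 stood at 212 FPKM in CR and 249.6 FPKM in control. Nthl1, a DNA repair glycosylase 52 bases from the other end of Tsc2, stood at 112 FPKM in CR and 22.8 FPKM in control, a log2 ratio of 2.24. Slc9a3r2, a scaffold protein of ion exchangers 6652 bases from Tsc2, stood at 147 FPKM in CR and 211 FPKM in control. Rps6kb1 lies between Rnft1, a RING finger gene 3 bases away, at 466 FPKM in CR and 586 FPKM in control, and Tubd1, the delta-tubulin gene 183 bases away, at 220.0 FPKM in CR and 173 FPKM in control. Eif4ebp1 overlaps by 580 bases an unnamed locus of 39941 bases on the opposite strand, which stood at 500.5 FPKM in CR and 779.8 FPKM in control, a log2 ratio of -0.64 beside -0.56 for Eif4ebp1. Short unnamed loci on the opposite strand also lie inside Mtor (27), Tsc2 (3), Rps6kb1 (2) and Eif4ebp1 (2, of which the larger value was 758 FPKM in CR and 876 FPKM in control). A locus of 46604 bases on the opposite strand overlaps Rictor, at 11.2 FPKM in CR and 26.5 FPKM in control. Mtor also holds 4 unnamed loci listed on its own strand, of which the largest values were 322 FPKM in CR and 628 FPKM in control. All 4 lie within the span of Angptl7 too, so without strand their reads cannot be assigned to either gene. The values of Mtor, Rictor, Tsc2, Rps6kb1 and Eif4ebp1 are uncertain to the extent that reads of these loci were shared. Rptor, Tsc1 and Rheb had no other locus within 10 kb.

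The extent of the deposited loci was close to that of the RefSeq genes in the later build GRCm38, by length alone. The Tsc1 locus spans 49932 bases, against 50180 for the RefSeq gene, and the Mtor locus spans 109116 bases, against 109104. Tsc2 was the exception, with 42207 bases against 36861, and its extra length was not assigned to a feature here.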

How the data were processed

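The deposited table gives FPKM per locus for 2 libraries, 1 per diet, on mouse build mm9, per the file headers. TopHat 1.2.0, Cufflinks and Cuffdiff are named in the submitters' processing notes, without options, annotation or filters. Per the labels' protocols, RNA was fragmented to about 200 nt and random-primed, and 76 bp paired-end reads were made. The lowest deposited value is exactly 1, and digits beyond 6 occur only just above a power of 10 (98 of 101 control values between 1 and 2, 0 of 77 between 2 and 3), so 1 was subtracted. This offset is inferred. The depth of each library is unknown, so no counting interval is given; the columns sum to 13608800 FPKM in CR and 12758500 in control, unusually large for this unit and unexplained here, so values are not compared with other data.

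Loci with a single symbol were used, loci of a symbol were summed, and 234 loci merging several symbols were left out. The log2 ratio used a pseudocount of 1 FPKM. Older symbols of listed genes came from the RefSeq gene table. Listed genes with no value used were Prr5l, Tti2, Trib3, Rps6 and Eif4ebp3, the last in a merged locus. The members, lists and thresholds were chosen with earlier results of these data known. The text names all members, each list's most abundant gene, its genes past 2-fold (up to 3 a side) and named loci within 10 kb; an item that this rule takes is not reported here. Eif4ebp2, Eif4e, Rps6kb2 and the pairs of genes set in ratio were chosen after their values were seen. With 2 libraries a pattern is a single ratio: 753 genes lay within 0.05 of the members' median log2 ratio, so none is named for likeness. The log2 ratio and the 2-fold threshold were run on simulated data with known folds, only with ratios centred on the median gene. The planted folds lay well past the threshold, in genes well above the floor and with little added noise. The run thus checks the computation only, and not calls near 2-fold or calls of low genes. Python 3.11.15, numpy 2.4.6, pandas 2.3.3 and matplotlib 3.10.9 were used.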

Additional observations from a re-analysis of the deposited data

How the results depend on the processing

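The members' count past 2-fold (1 higher, Tsc1, and 0 lower) was the same with pseudocounts of 0.1 and 5 FPKM, with no filter or a filter at 10 FPKM, after centring on the median gene, after rescaling without the 50 most abundant genes, and with the largest locus of a symbol. Over these settings the log2 ratio lay between 1.05 and 1.16 for Tsc1, between -0.81 and -0.71 for Rptor, between -0.63 and -0.52 for Eif4ebp1 and between -0.52 and -0.42 for Rheb. No member's ratio changed sign. The members stood at 137 FPKM or more in both libraries, and each was a single locus. The pseudocounts, the filters and the choice of locus therefore could not change a member's call. Only the centring and the rescaling could do so. The members' median log2 ratio of 0.06 became -0.016 after the rescaling, which lowers every ratio by a like amount, so its sign carries no direction. The background share moved with the genes counted: within the members' range of mean FPKM 4.16% were at least 2-fold higher and 4.33% lower, and among genes above 0 in both libraries 6.85% were lower. These sets were added after the data were seen. No paired analysis was possible because each group has 1 library, and for the same reason no library could be left out. Unknown depth limits all values, most of all those of low genes.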

Other observations

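The table lists 27 unnamed loci inside Mtor on the strand opposite to it, of 100 to 818 bases each. Their median level was 0.18 FPKM in CR and 109 FPKM in control, with 12 listed at 0 in CR and 0 in control. At least 2-fold lower in CR were 17 (63.0%), 3 were higher and 7 lay within 2-fold, while Mtor itself had a log2 ratio of 0.21. Among all 10091 unnamed loci of at most 1000 bases, 33.4% were at least 2-fold lower, and 29.2% were listed at 0 in CR and 12.8% in control. Strand was not recorded by the library kit, as its protocol reads, so whether these loci hold transcripts of their own cannot be told apart from fragments of Mtor.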
